A study of Mus musculus with 6 samples.

Results

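Acsbg1 and the other acyl-CoA synthetases were 10 of the 26167 genes measured in the tumors. The members were Acsbg1, Acsl1, Acsl3, Acsl4, Acsl5, Acsl6, Acss1, Acss2, Acsf2, and Acsf3, matched by exact symbol. Acsbg1 was selected on measured values, namely its rise in every Sora-treated tumor, so its difference between the groups is given as a description without a test. The other 9 genes were taken for their family membership.

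Bulk RNA-seq was performed on subcutaneous Hepa1-6 tumors, named Hep1-6 in the sample labels, grown from a mouse hepatoma cell line in female C57BL/6J mice aged 6 to 8 weeks. Tumor cells were injected on day 0, and the treated mice received sorafenib (Sora), an inhibitor of several kinases, at 10 mg/kg ip on days 9, 11, 13, and 15. The control group held tumors 1, 3, and 4 and the Sora group tumors 2, 3, and 4, that is 3 tumors per group with 1 library each, and single values are given in this order. What the control mice received is not given in the sources used here, and the labels do not say that each tumor came from a separate mouse, so p-values measure the spread between these tumors. Each library holds RNA of all cells of a tumor, so that fewer cells of a type and less RNA per cell cannot be told apart.

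Acyl-CoA synthetases join a fatty acid to coenzyme A with the use of ATP. The acyl-CoA that they form is the substrate for oxidation, for phospholipid and triglyceride synthesis, and for chain elongation. The family is divided by the chain length that each enzyme prefers: the ACSL enzymes and the "bubblegum" enzyme ACSBG1 act on long chains, ACSS1 and ACSS2 act on acetate, and ACSF2 and ACSF3 form a separate branch of mitochondrial enzymes. Acsbg1 is known mainly from brain, adrenal gland, and gonads, whereas Acsl1 is the best known form of liver and fat.

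The libraries held 31073830 to 36205814 counted reads. Counts of Sora-treated tumor 4 were recovered from its FPKM (fragments per kilobase of gene length, scaled to the total of the library), because the count table used here held the other 5 tumors. Treating each known tumor as unknown returned its total and the count of every gene with a known length exactly, while 460 to 556 genes per tumor (669 to 1023 reads) had no length. The quasi-likelihood test of edgeR was applied to 16513 genes that reached 10 counts in 3 or more tumors, and a gene was called at a Benjamini-Hochberg adjusted p under 0.05. Of the 10 members, 9 passed this filter, and Acsl6 did not. FPKM are per length and are used wherever 1 gene is set beside another, and log2 fold changes are Sora over control from the counts.

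Acsbg1 lies on the minus strand of chromosome 9 (54604886 to 54661885 in the NCBI RefSeq annotation of GRCm38.p6). The deposited tables give symbols and no positions, so positions here are those of RefSeq. The 250 bases before its start (RefSeq, chr9:54661886-54662135, minus strand, 5′ to 3′) are shown because they are the promoter of the gene whose level differed most among the members. Capitals mark CCAAT, the letters bound by the factor NF-Y, and its reverse complement.
Acsbg1: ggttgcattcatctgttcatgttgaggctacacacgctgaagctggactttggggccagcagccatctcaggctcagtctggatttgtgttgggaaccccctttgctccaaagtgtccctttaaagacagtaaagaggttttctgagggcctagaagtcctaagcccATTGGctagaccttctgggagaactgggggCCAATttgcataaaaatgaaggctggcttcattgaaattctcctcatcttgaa
The matches began 83 and 53 bases before the start. GC content of this stretch was 48.4%, and that of its 300-base window, which adds the first 50 transcribed bases, was 47.0%, against a median of 52.67% over all promoter windows. The 10 members had 13 windows (3 for Acsl6, 2 for Acsl1, and 1 for each other gene), which were searched on both strands for 6 short motifs. CCAAT was found in 8 of the 13 windows, that of Acsbg1 included, and in 37.4% of the 32851 windows of this length in the table. GGGCGG, the letters of a GC box, was found in 9 of the 13 but not in that of Acsbg1, and in 35.7% of all windows. AGGTCA, the core letters of many nuclear receptor sites, was found in 1 window of Acsl6 (16.3% of all windows), and TCACNCCAC, a sterol regulatory element, in the second window of Acsl1 (1.24%). CACGTG and TATAAA were in 0 of the 13 and in 7.15% and 13.6% of all windows. A match is a description of these letters and does not show that a factor binds there.

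Acsbg1 mRNA in every Sora-treated tumor exceeded that in every control tumor. Its FPKM was 14.3, 16.6, and 15.4 in the control group and 36.8, 32.6, and 38.3 in the Sora group. The lowest Sora-treated tumor, number 3, was 1.96 times the highest control tumor, also numbered 3. Group means were 15.4 ± 1.17 and 35.9 ± 2.997 FPKM (SD, n = 3 tumors per group), a ratio of 2.33. The log2 fold change was 1.23. These values rested on 1510 to 1878 reads in control tumors and 3653 to 4414 in Sora-treated tumors. Among genes with any reads, Acsbg1 stood at the 82.6th percentile of FPKM in control tumors and at the 92.1st in Sora-treated tumors. A long noncoding RNA gene, Gm51677, overlaps it in RefSeq, with a mean of 0.111 FPKM.

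**Figure D1:**
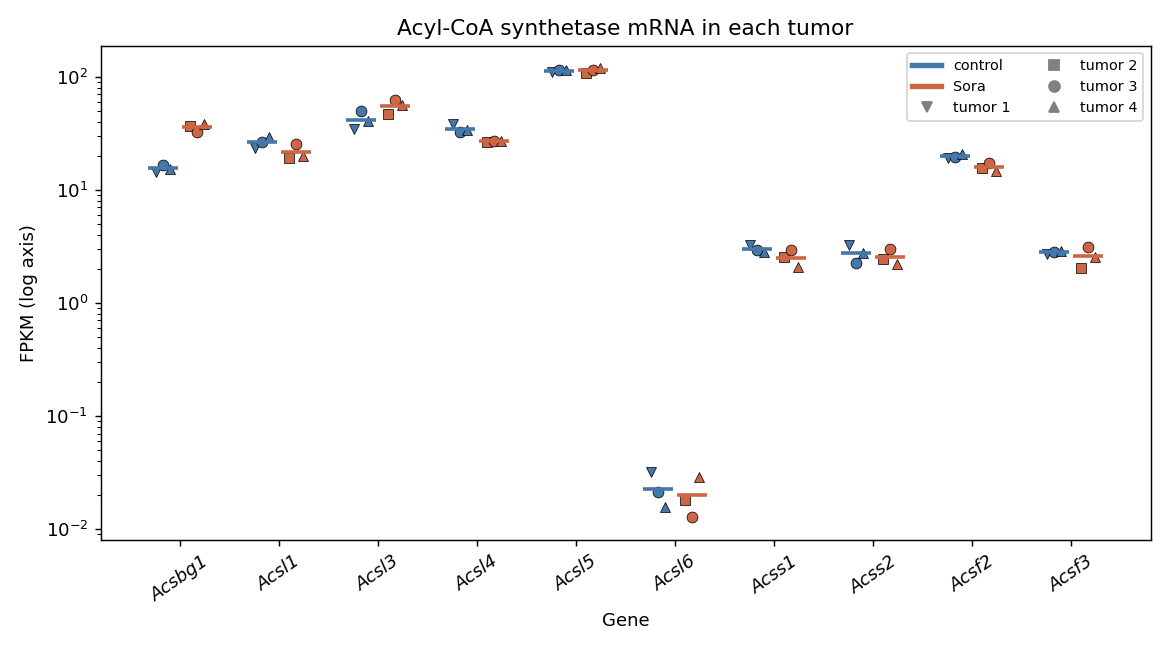
FPKM of the 10 acyl-CoA synthetase genes in each tumor on a log axis, with control tumors in blue, Sora-treated tumors in orange, marker shapes for the tumor number, and lines for group means (n = 3). The groups are apart for Acsbg1 (higher in Sora-treated tumors) and for Acsl4 and Acsf2 (lower), and Acsl6 lies below 0.04 FPKM in every tumor.

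The order of the family members by FPKM differed between the groups mainly in the place of Acsbg1. In control tumors the order of the means was Acsl5, Acsl3, Acsl4, Acsl1, Acsf2, Acsbg1, Acss1, Acsf3, Acss2, and Acsl6. Acsl3 and Acsl4 overlapped there, as did Acss1 with Acsf3 and Acsf3 with Acss2, and the other neighbors in the order did not. Acsbg1 took rank 6 in each of the 3 control tumors and rank 3 in each of the 3 Sora-treated tumors, behind Acsl5 and Acsl3. In Sora-treated tumors it was followed by Acsl4, Acsl1, and Acsf2, none of which overlapped with a neighbor. Acsf3, Acss2, and Acss1 came next and overlapped in order, and Acsl6 was last.

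Of the 8 other members that were tested, 0 were called higher and 1, Acsl4, was called lower. At an unadjusted p under 0.05 there were 4 (Acsl1, Acsl3, Acsl4, and Acsf2), against 17.2% of all genes. DESeq2 called 1 higher (Acsl3) and 2 lower (Acsl4 and Acsf2), against 4% and 3.71% of the 15490 genes to which it gave an adjusted p. Over all genes tested, 1.94% were called higher and 1.34% lower by edgeR. By CPM (counts scaled to the library total with TMM), 0 of the 8 had every Sora-treated tumor above every control tumor, against 10.6% of all genes, and 2 (Acsl4 and Acsf2) had every one below, against 11.6%. Their median log2 fold change was -0.18, against a median of -0.0004 over all genes, with 2 of the 8 above 0 and 6 below.

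**Figure D2:**
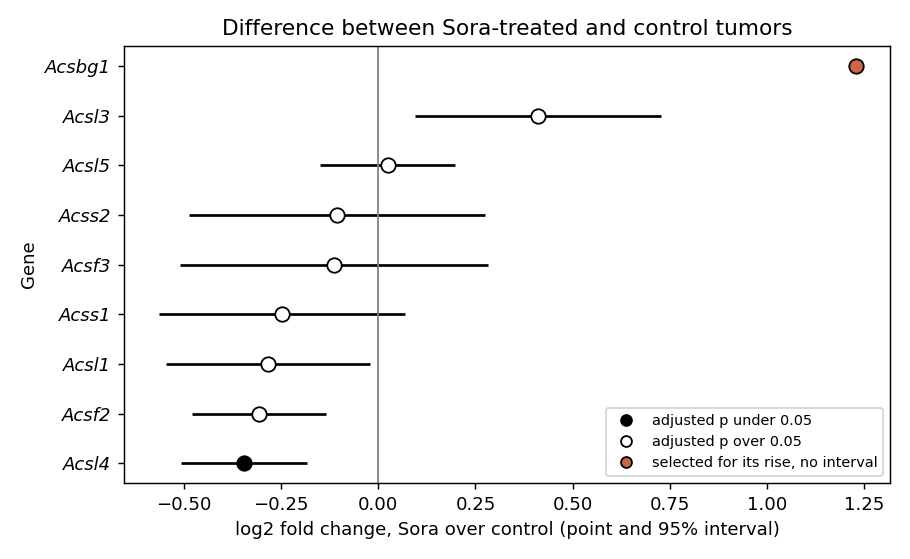
Log2 fold change (Sora over control) of the 9 members in edgeR's fit of 3 control and 3 Sora-treated tumors, with 95% intervals for all but Acsbg1 (orange), which was selected for its rise. Acsbg1 is at 1.23 by that selection, and the other 8 range from -0.34 for Acsl4 to 0.41 for Acsl3.

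Acsl4, the form that prefers arachidonic acid and other polyunsaturated chains and is known for its part in ferroptosis, was lower in Sora-treated tumors. Its FPKM was 37.8, 32.1, and 33.4 in the control group and 26.6, 27.2, and 26.8 in the Sora group. All 3 Sora-treated tumors lay below all control tumors, and they were closer to each other than the control tumors were. The means were 34.5 ± 2.95 and 26.9 ± 0.314 FPKM (SD, n = 3). The log2 fold change was -0.34 (standard error 0.0733, 95% interval -0.51 to -0.18, adjusted p = 0.033, edgeR). Without Sora-treated tumor 4, on deposited counts alone, the log2 fold change was -0.36 and the call was lost (adjusted p = 0.13, edgeR; range over all alternatives 0.00091 to 0.47). It was also lost without control tumor 1 (0.11), 3 (0.053), or 4 (0.068) and without Sora-treated tumor 2 (0.13), and it held without Sora-treated tumor 3 (0.035). Acsl4 lies on chromosome X (142317993 to 142390802), and no other RefSeq gene overlaps it.

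Acsl3, an enzyme of the endoplasmic reticulum and of lipid droplets, was at 34.8, 49.8, and 40.4 FPKM in the control group and at 47.2, 62.5, and 55.8 FPKM in the Sora group. The groups overlapped, since control tumor 3 exceeded Sora-treated tumor 2. The log2 fold change was 0.41 (standard error 0.143, 95% interval 0.10 to 0.73, adjusted p = 0.16, edgeR), which was past the threshold only when control tumor 3 was left out (0.048) and, among the other alternatives, with DESeq2 and without a filter (range over all alternatives 0.028 to 0.41). The protein-coding gene Utp14b overlaps Acsl3 on the same strand (mean 7.37 FPKM), so reads could be split between them.

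Acsl1, which feeds both oxidation and triglyceride synthesis, was at 23.4, 26.5, and 29.1 FPKM in the control group and at 19.1, 25.6, and 19.8 FPKM in the Sora group. Sora-treated tumors 2 and 4 were below all control tumors, and Sora-treated tumor 3 lay among them. Its log2 fold change was -0.28 (standard error 0.119, 95% interval -0.55 to -0.02, adjusted p = 0.24, edgeR), and it was called without Sora-treated tumor 3 (0.044; range over all alternatives 0.044 to 0.60).

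Acsl5, an enzyme of mitochondria and the endoplasmic reticulum, had the highest level of the family. It was at 109.9, 115.5, and 113.8 FPKM in the control group and at 108.6, 115.2, and 118.4 FPKM in the Sora group. The groups overlapped throughout, and the log2 fold change was 0.02 with an interval of -0.15 to 0.20 (adjusted p = 0.91, edgeR). Acsl6, a form best known from brain, had 7, 5, and 4 reads in control tumors and 4, 3, and 7 in Sora-treated tumors. At 0.0128 to 0.0317 FPKM it did not pass the filter and was not tested. With so few reads, a small difference could not be seen at this depth.

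Among the enzymes of other chain lengths, Acsf2, a mitochondrial synthetase for medium chains, had the highest level. Its FPKM was 19.2, 19.5, and 20.6 in the control group and 15.5, 17.3, and 14.8 in the Sora group. The groups did not overlap, but the difference (log2 fold change -0.31, standard error 0.0777, 95% interval -0.48 to -0.14) missed the threshold (adjusted p = 0.058, edgeR). It was past the threshold without Sora-treated tumor 3 (adjusted p = 0.021, edgeR; range over all alternatives 0.021 to 0.39). The other 3 overlapped between the groups at a lower level. Acss1, which activates acetate in mitochondria, went from 3.01 ± 0.238 to 2.52 ± 0.419 FPKM (SD, n = 3; log2 fold change -0.25, interval -0.56 to 0.07, adjusted p = 0.42, edgeR). Acss2, which activates acetate in the cytosol and nucleus, was at 2.77 ± 0.494 and 2.55 ± 0.406 FPKM (log2 fold change -0.11, interval -0.49 to 0.27, adjusted p = 0.81, edgeR). Acsf3, the mitochondrial synthetase for malonate, was at 2.81 ± 0.0713 and 2.58 ± 0.549 FPKM (log2 fold change -0.11, interval -0.51 to 0.28, adjusted p = 0.81, edgeR). These 3 genes had 162 to 369 reads per tumor, and changes of the size seen in Acsl4 lie within their intervals.

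The share of Acsbg1 in the long-chain family was then computed from the summed FPKM of Acsbg1, Acsl1, Acsl3, Acsl4, Acsl5, and Acsl6. The share includes the gene that was selected for its rise and is a description. Acsbg1 made up 6.50%, 6.91%, and 6.62% in the control group and 15.4%, 12.4%, and 14.8% in the Sora group. The sum of the 5 Acsl genes alone was 215.6 ± 9.11 FPKM in control and 217.7 ± 14.9 FPKM in Sora-treated tumors (SD, n = 3), a difference smaller than the spread of either group. Within the sum of all 6, the mean shares in the control and the Sora group were 14.97% and 10.62% for Acsl4 and 11.4% and 8.46% for Acsl1. Those of Acsl3 were 18.0% and 21.7%, and those of Acsl5 were 49.0% and 45.0%. This sum holds the selected gene, so the rise of Acsbg1 by itself lowers the shares of the others. The share of Acsl5 was lower although its mean FPKM was 113.1 in the control group and 114.1 in the Sora group. The ratio of Acsbg1 to Acsl4, both in FPKM, was 0.452 ± 0.0697 in control tumors and 1.34 ± 0.124 in Sora-treated tumors, so that their order turned. The summed FPKM of Acss1, Acss2, Acsf2, and Acsf3 was 28.4, 27.5, and 29.1 in the control group and 22.5, 26.4, and 21.6 in the Sora group, mostly that of Acsf2.

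**Figure D3:**
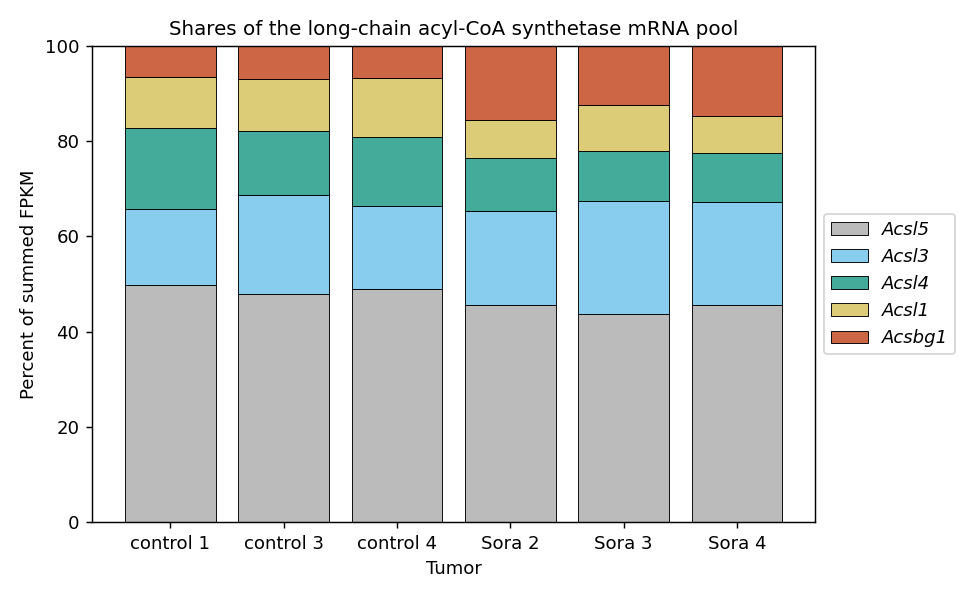
Percent of the summed FPKM of the long-chain acyl-CoA synthetases taken by each gene in each of the 6 tumors, Acsl6 being too low to draw. The Acsbg1 segment at the top spans 6.50% to 6.91% in control tumors and 12.4% to 15.4% in Sora-treated tumors, and Acsl5 is the widest in every tumor.

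Genes that supply the substrate of these enzymes or use their product were described by lists of genes of the pathway, and few of them passed the test. Over all genes tested, the shares to set beside the counts of the lists are those given for the family: 1.94% called higher and 1.34% lower by edgeR, 17.2% at an unadjusted p under 0.05, and 4% and 3.71% called by DESeq2. No gene was called among the other acyl-CoA synthetases (5 tested), the fatty acid transport proteins of the Slc27 family (4), the acyl-CoA binding proteins (5), the thioesterases that reverse the reaction (11), fatty acid oxidation (25), or fatty acid synthesis (13). Median log2 fold changes of these lists were 0.26, 0.19, -0.05, -0.14, -0.09, and -0.01. All 5 of the other synthetases and all 4 transport proteins had values above 0, and 9 of 11 thioesterases and 20 of 25 oxidation genes had values below 0. Over all 16513 genes tested, 8244 were above 0 and 8269 below. The genes of a list share the same 6 tumors, so these sign counts are a description. In the same order, 2, 1, 2, 1, 2, and 2 genes had an unadjusted p under 0.05 in edgeR's test, and DESeq2 called Slc27a4 (higher) and Acot1 (lower) and no other gene of these 6 lists. Of the genes with the highest levels, Aacs (acetoacetate activation) had a log2 fold change of 0.26 and Aasdh of 0.08 (adjusted p = 0.19 and 0.85, edgeR). Slc27a4, a transporter with synthetase activity, went from 6.96 ± 0.597 to 8.85 ± 0.705 FPKM (log2 fold change 0.36, adjusted p = 0.063, edgeR), and Slc27a1 had a log2 fold change of 0.06 (0.82). Dbi and Acbd3, which bind acyl-CoA, had values of -0.05 and 0.12, the thioesterases Acot13 and Acot9 had -0.16 and -0.07, and Acadl and Hadh of the oxidation spiral had 0.05 and -0.07 (adjusted p 0.44 to 0.82, edgeR). For Acly and Fasn, the enzymes that make cytosolic acetyl-CoA and palmitate, the log2 fold changes were 0.04 and 0.11 (0.88 and 0.59).

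Called genes were found in 4 lists. In fatty acid uptake and binding, 1 of 11 genes was called lower and 0 higher, with a list median of 0.05. At an unadjusted p under 0.05 there were 4, and DESeq2 called 1 higher (Vldlr) and 3 lower (Lpl, Cd36, and Lipa). The gene called by edgeR was Lpl, the lipase that frees fatty acids from lipoproteins, at 96.1, 87.7, and 81.2 FPKM in the control group and 55.9, 71.0, and 57.6 FPKM in the Sora group (log2 fold change -0.51, standard error 0.0991, adjusted p = 0.023, edgeR). Fabp5 and Got2 of the same list had log2 fold changes of 0.10 and 0.05 (0.77 and 0.80). Lpl was therefore lower in every Sora-treated tumor than in every control tumor, while the most abundant binding protein overlapped between the groups. By CPM, 3 of the 11 genes lay below in this way and 1 above, against 11.6% and 10.6% of all genes.

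Among the glycerolipid and cholesterol ester acyltransferases, 3 of 24 genes were called higher and 0 lower (median log2 fold change 0.04), against 1.94% and 1.34% of all genes. At an unadjusted p under 0.05 there were 5, and DESeq2 called the same 3 higher and Gpam lower. Agpat5, which adds an acyl chain to lysophosphatidic acid, rose from 25.2 ± 2.06 to 39.9 ± 6.53 FPKM (SD, n = 3; log2 fold change 0.68, standard error 0.120, adjusted p = 0.019, edgeR). Mboat2, a lysophospholipid acyltransferase, rose from 0.895 ± 0.0234 to 1.19 ± 0.085 FPKM (log2 fold change 0.42, adjusted p = 0.041, edgeR). Lpin2 rose from 3.34 ± 0.348 to 4.56 ± 0.194 FPKM (log2 fold change 0.46, adjusted p = 0.025, edgeR), and it is a phosphatidate phosphatase rather than an acyltransferase. The groups did not overlap for any of the 3, which were named because they were called. By CPM, 4 of the 24 genes had every Sora-treated tumor above every control tumor, against 10.6% of all genes. In 2 every one lay below, against 11.6%. Lpcat3, the most abundant gene of this list and an enzyme that puts polyunsaturated chains into phospholipids, had a log2 fold change of -0.17 (adjusted p = 0.34, edgeR).

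In elongation, desaturation, and ceramide synthesis, 1 of 26 genes was called higher and 0 lower (median 0.06). At an unadjusted p under 0.05 there were 9, and DESeq2 called 2 higher (Elovl3 and Elovl6) and 3 lower (Hacd2, Hacd3, and Cers6). Elovl3, an elongase of very-long-chain fatty acids, was at 0.988, 0.577, and 0.741 FPKM in the control group and 3.10, 3.23, and 2.02 FPKM in the Sora group (log2 fold change 1.87, standard error 0.269, adjusted p = 0.011, edgeR). Its level stayed far below those of Scd2 (240.3 ± 15.1 and 230.6 ± 11.1 FPKM) and Tecr, whose log2 fold changes were both -0.05. Among 18 transcription factors of lipid genes, 1 was called higher and 0 lower (median 0.07), with 8 at an unadjusted p under 0.05, and DESeq2 called Hnf4a higher and Nr1h3 lower. Hnf4a, a nuclear receptor of hepatocytes, rose from 17.1 ± 1.39 to 29.4 ± 4.68 FPKM (SD, n = 3; log2 fold change 0.80, standard error 0.124, adjusted p = 0.013, edgeR). Srebf2 and Srebf1, which drive sterol and fatty acid genes, had log2 fold changes of 0.19 and 0.08 (0.27 and 0.70). Without Sora-treated tumor 4, the adjusted p of these 6 called genes was 0.13 for Lpl, 0.096 for Agpat5, 0.13 for Lpin2, 0.13 for Mboat2, 0.054 for Elovl3, and 0.082 for Hnf4a, so none was called. Over all alternatives the adjusted p ran from 2.4e-05 to 0.24 for Lpl, 2e-06 to 0.18 for Agpat5, 0.00022 to 0.21 for Lpin2, 0.014 to 0.45 for Mboat2, 1.3e-08 to 0.14 for Elovl3, and 2.8e-08 to 0.14 for Hnf4a. All 6 were called without Sora-treated tumor 3. Other single tumors also ended calls: control tumor 1 for Lpl (0.075), Agpat5 (0.059), Lpin2 (0.078), and Mboat2 (0.11), control tumor 3 for Lpl (0.056), Lpin2 (0.062), and Mboat2 (0.091), control tumor 4 for Mboat2 (0.10) and Hnf4a (0.051), and Sora-treated tumor 2 for Lpl (0.095), Agpat5 (0.060), Lpin2 (0.077), and Mboat2 (0.17).

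**Figure D4:**
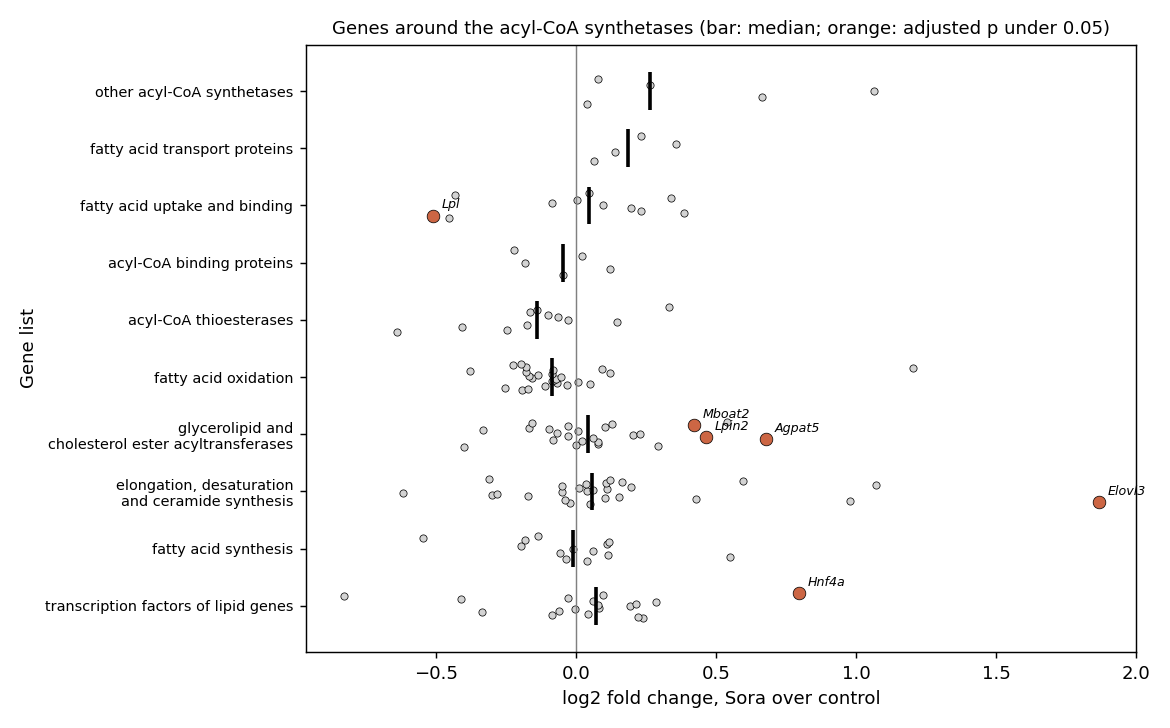
Log2 fold change (Sora over control) of each tested gene in 10 lists of lipid genes that exclude the family members, with a bar at the list median and called genes in orange with their symbols. Lpl (-0.51) is the called gene on the lower side, Elovl3 (1.87) lies farthest out, and all list medians lie between -0.14 and 0.26.

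None of the 3 nearest tested genes on each side of Acsbg1 on chromosome 9 was called higher, and 1, Idh3a, was called lower in edgeR's test, against 1.94% and 1.34% of all genes. Idh3a, the catalytic subunit of mitochondrial NAD-dependent isocitrate dehydrogenase, ends 224 bases from the 3′ end of Acsbg1 on the opposite strand. It was at 40.1, 37.0, and 39.3 FPKM in the control group and 32.3, 29.8, and 31.4 FPKM in the Sora group. All Sora-treated tumors were below all control tumors, as for 11.6% of all genes, with a log2 fold change of -0.30 and an adjusted p of 0.043 (edgeR), which was over 0.05 with any 1 tumor left out (0.052 without Sora-treated tumor 3 to 0.14 without Sora-treated tumor 4; range over all alternatives 0.0077 to 0.36). Cib2 and Dmxl2 on the same side had log2 fold changes of -0.33 and -0.05 (adjusted p = 0.53 and 0.89, edgeR), and for Cib2 the groups did not overlap either. On the other side, Dnaja4, Crabp1, and Ireb2 had -0.03, 0.48, and -0.16 (0.97, 0.46, and 0.32).

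**Figure D5:**
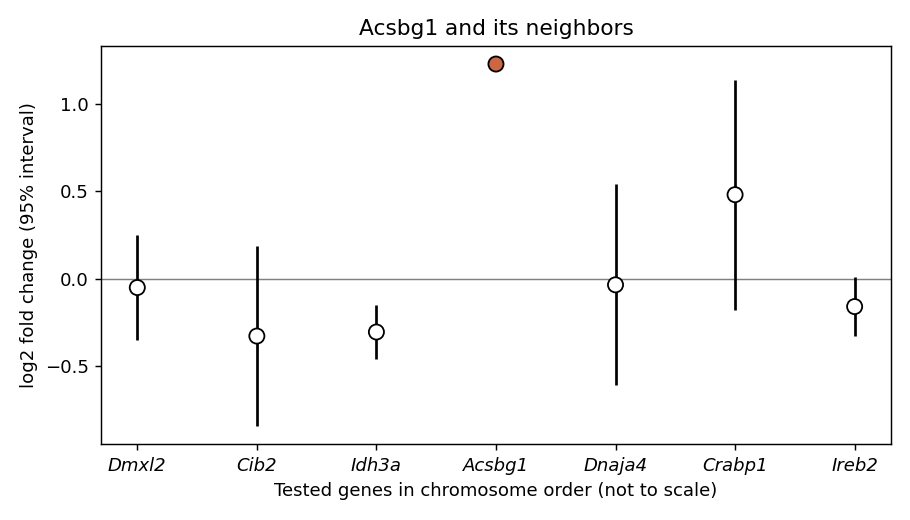
Log2 fold change (Sora over control) of Acsbg1 (orange, selected for its rise and drawn without an interval) and, with 95% intervals, the 3 nearest tested genes on each side, in chromosome order and not to scale. Acsbg1 is at 1.23, and the 6 neighbors lie between -0.33 and 0.48.

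The pattern of Acsbg1 over the 6 tumors was compared with that of 14112 genes with a mean of at least 1 CPM, by Pearson's r of log2(CPM + 1). The points share libraries and group labels, so r is a description. Of these genes, 4.06% had an r of at least 0.9. The 5 genes most like it were Slc25a1 (0.998), Adarb1 (0.994), Plxnb1 (0.994), Asap2 (0.992), and Pkd1l1 (0.992). Slc25a1 carries citrate out of mitochondria, Adarb1 is an RNA-editing enzyme, Plxnb1 is a semaphorin receptor, and Asap2 acts on Arf GTPases. Slc25a1 was at 45.3, 43.9, and 44.8 FPKM in the control group and 50.8, 49.9, and 49.9 FPKM in the Sora group, a far smaller difference (log2 fold change 0.18) than that of Acsbg1. The log2 fold changes of Adarb1, Plxnb1, Asap2, and Pkd1l1 were 0.68, 0.62, 0.43, and 0.80. Within the family, r with Acsbg1 was -0.96 for Acsl4, -0.92 for Acsf2, -0.77 for Acss1, -0.67 for Acsl1, -0.46 for Acss2, -0.37 for Acsf3, 0.30 for Acsl5, and 0.75 for Acsl3 (n = 6 tumors). In the same order, 99.18%, 97.41%, 88.31%, 82.25%, 71.13%, 66.53%, 35.27%, and 11.8% of the genes compared had a higher r. Acsbg1 was selected for its difference between the groups, so r with it also reflects the group difference of each gene.

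Markers of the cell types that a tumor of this kind could hold were measured beside these results, and their counts stand against the same shares of all genes (1.94% higher, 1.34% lower, and 17.2% at an unadjusted p under 0.05 in edgeR's test). The hepatoma label was borne out by Afp (322.5 to 483.2 FPKM), Krt8, and Krt18 in every tumor. Levels of the list were lowest for Apoc3 (0.0431 FPKM or lower), Apoa2 (0.974 to 1.66), Ttr (1.42 to 8.76), and Igf2 (5.28 to 7.35). Of the 11 hepatoma markers tested, Alb (log2 fold change -0.55) and Ttr (-2.15) were called lower and Apoa1 (1.03) higher in edgeR's test, with 6 at an unadjusted p under 0.05, and DESeq2 called Alb and Ttr lower and 0 higher. Of the 3 genes, only Ttr kept its call when Sora-treated tumor 4 was left out (adjusted p = 0.046, edgeR). Acsbg1 is known from brain and from steroid-making cells, and markers of both were measured. The neural markers Gfap and Aqp4 were at 0.00808 and 0.0322 FPKM or lower, with 0 in at least 1 tumor, and the steroidogenic markers Nr5a1 and Mc2r were at 0.0189 and 0.0485 FPKM or lower. Other genes of the same lists were expressed, with Gja1 at 12.65 to 22.1, Aldh1l1 at 3.18 to 4.06, Tubb3 at 2.68 to 3.81, Slc1a2 at 0.349 to 2.64, and Cyp11a1, the first enzyme of steroid synthesis, at 2.08 to 4.55 FPKM. Summed levels of the neural list were 21.96 to 24.9 FPKM in control and 23.9 to 28.8 FPKM in Sora-treated tumors, and they overlapped. Those of the steroidogenic list were 4.79 to 5.54 and 2.96 to 4.05 FPKM, lower in every Sora-treated tumor. Most of this sum was Cyp11a1, at 3.80, 4.55, and 4.33 FPKM in the control group and 3.22, 2.85, and 2.08 FPKM in the Sora group. Of the 4 steroidogenic genes tested, 2 had log2 fold changes above 0 and 2 below, with a median of -0.07. Of the 5 neural genes tested, 3 were above 0 and 2 below. Of 5 neural markers tested, Slc1a2 was called lower (-1.73) and 0 higher in edgeR's test, and DESeq2 also called Gja1 higher. The call of Slc1a2 was lost without Sora-treated tumor 4 (adjusted p = 0.096, edgeR) and without control tumor 4 (0.060). Of 4 steroidogenic markers 0 were called in edgeR's test, with 1 at an unadjusted p under 0.05, and DESeq2 called Cyp11a1 lower. Foxp3, the defining factor of Treg cells, was at 0.684, 0.641, and 0.591 FPKM in the control group and 0.549, 0.505, and 0.470 FPKM in the Sora group. Its log2 fold change was -0.32 (adjusted p = 0.56, edgeR). Of 8 Treg markers, 0 were called in edgeR's test (1 at an unadjusted p under 0.05) or in DESeq2, and 4 were above 0 and 4 below. By CPM, 2 of the 8 lay below in every Sora-treated tumor and 0 above, against 11.6% and 10.6% of all genes. Summed levels were 31 to 36.4 FPKM in control and 30.3 to 33.2 FPKM in Sora-treated tumors.

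In 4 other marker lists the summed level was lower in every Sora-treated tumor than in every control tumor, although edgeR called only 1 gene in each of the 4. The same held for Acsl4 and Acsf2 and for the steroidogenic sum, which was mostly Cyp11a1. Of single genes, 11.6% lay below in this way, and 8269 of the 16513 genes tested had a log2 fold change below 0. Summed T cell markers were 158.7 to 182.1 FPKM in control and 128.4 to 137.0 FPKM in Sora-treated tumors, with 11 of 11 log2 fold changes below 0 and Cd8b1 called lower (-0.56), 8 at an unadjusted p under 0.05, and 3 called lower by DESeq2 (Cd8b1, Cd4, and Lck). Summed macrophage markers were 1119 to 1337 and 923.3 to 1117 FPKM, with 10 of 10 below 0 and Mertk called lower (-0.45), 7 at an unadjusted p under 0.05, and 5 called lower by DESeq2 (Mertk, Csf1r, C1qa, C1qb, and C1qc). Summed fibroblast markers were 2096 to 2196 and 1610 to 1944 FPKM, with 9 of 10 below 0 and Postn called lower (-0.68), 4 at an unadjusted p under 0.05, and 4 called lower by DESeq2 (Postn, Col1a1, Col1a2, and Col3a1). Red blood cell markers were 74.1 to 208.7 and 53.6 to 70.8 FPKM, with 5 of 5 below 0 and Hba-a1 called lower (-1.17), 5 at an unadjusted p under 0.05, and 3 called lower by DESeq2 (Hba-a1, Hbb-bt, and Alas2). Above 0 were the log2 fold changes of 9 of 9 adipocyte markers, 10 of 10 muscle markers, and 10 of 10 keratinocyte markers, with 0 called in edgeR's test (4, 1, and 1 at an unadjusted p under 0.05), 2 adipocyte markers called higher by DESeq2 (Plin4 and Cfd) and 0 of the other 2 lists, and sums that overlapped between the groups (74.8 to 107.2 against 89.1 to 136.9 FPKM for adipocytes and 125.9 to 168.5 against 143.6 to 200.7 FPKM for muscle). Keratinocyte sums were 495.6, 135.3, and 156.5 FPKM in the control group and 448.5, 304.0, and 302.5 FPKM in the Sora group, so that control tumor 1 was the highest of all and far above the other control tumors. Endothelial sums overlapped as well (105.0 to 113.8 and 79.9 to 108.8 FPKM), with 0 of 10 markers called in edgeR's test (2 at an unadjusted p under 0.05) or in DESeq2. When Sora-treated tumor 4 was left out, edgeR called 0 of the markers of these lists. The part of these cell types in the values of the acyl-CoA synthetases was not tested.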

How the data were processed

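The authors sequenced 1 library from each of 6 tumors and deposited a table of counts (reads per gene, not normalized) and a table of FPKM, both by symbol. Their paper names Bowtie2 and GRCm38, whereas the submitters' processing notes list fastp, HISAT2, HTSeq, R 3.2.0, DESeq2, and GRCm39 without roles. The annotation and the use of strand are not given in the sources used here. In the deposited FPKM, each value follows from the count, 1 length per gene, and the total count, although the paper names an expectation maximization algorithm. The count table used here holds 5 tumors. Those of Sora-treated tumor 4 were recovered by inverting its FPKM, and 100% were within 0.001 of a whole number. For 342 genes without a length, with 512 reads, they were left at 0.

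Counts were tested with edgeR 4.0.16 (TMM scaling, quasi-likelihood test, no covariate) in R 4.3.3, with Benjamini-Hochberg adjustment over 16513 genes. Standard errors are the log2 fold change divided by the square root of F, and intervals are at 95%. The biological coefficient of variation was 0.132, and correlations of log2(CPM + 1) between pairs of tumors were 0.9933 to 0.9974. Alternatives were DESeq2 1.42.0, other scalings and filters, limma 3.58.1 on log2 of FPKM plus 1 or 0.1, a replicate block, and leaving out each tumor. Their application to named genes outside the family was chosen after seeing the data. The scripts were tested on simulated data.

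Named genes were all members, the 5 genes with the pattern most like Acsbg1, the 3 tested neighbors on each side, list genes with an adjusted p under 0.05, and the 2 genes with the highest FPKM of each pathway list. Genes named for a call by DESeq2 alone, and marker genes named for their level, were chosen after their values were seen. The members and lists were chosen with earlier results of these data known. Promoter letters and positions come from RefSeq tables of GRCm38.p6.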

Additional observations from a re-analysis of the deposited data

How the results depend on the processing

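Called genes (higher and lower) numbered 619 and 575 with DESeq2, 570 and 577 without a filter, 180 and 106 with limma on log2(FPKM + 1), 166 and 86 on log2(FPKM + 0.1), and 0 and 0 on log2(FPKM + 1) without a filter (1588 and 1527 at an unadjusted p under 0.05). They numbered 80 and 45 with the replicate block, and 4 to 574 and 1 to 571 with 1 tumor left out (fewest without Sora-treated tumor 4, most without Sora-treated tumor 3). Same-numbered tumors 3 and 4 did not deviate together (correlations -0.0326 and -0.0736), so the block rests on a shared number only.

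Members called besides Acsbg1 numbered 3 with DESeq2 and 3 without a filter (Acsl3, Acsl4, and Acsf2 each time), 0 in the 3 limma fits, 0 with the replicate block, and 0 to 3 with 1 tumor left out. Acsl4 was called in 7 of 16 alternatives (log2 fold change -0.37 to -0.28, adjusted p 0.00091 to 0.47). With 1 tumor left out its call held only without Sora-treated tumor 3 (0.035), and its adjusted p was 0.11, 0.053, and 0.068 without control tumors 1, 3, and 4 and 0.13 without Sora-treated tumor 2 or 4 (edgeR). Acsf2 and Acsl3 were called in 3 alternatives each (adjusted p 0.021 to 0.39 and 0.028 to 0.41) and Acsl1 in 1 (0.044 to 0.60, called without Sora-treated tumor 3). The log2 fold change of Acsbg1 was 1.15 to 1.31 over 16 alternatives.

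Values near 0 changed sign. With the replicate block the log2 fold change was 0.0383 for Acss2, 0.0314 for Acot9, -0.0751 for Acly, and -0.0049 for Fasn. With 1 tumor left out it ran from -0.0213 to 0.0669 for Acsl5, -0.23 to 0.0107 for Acss2, -0.27 to 0.0367 for Acsf3, -0.14 to 0.0105 for Acot9, -0.0552 to 0.0961 for Acly, -0.18 to 0.02 for Dmxl2, -0.20 to 0.16 for Dnaja4, -0.12 to 0.0028 for Scd2, -0.0464 to 0.18 for Fabp5, -0.0684 to 0.19 for Aasdh, and -0.072 to 0.16 for Slc27a1. Causes were not tested. Groups of 3 tumors limit all calls, and 3 to 7 reads limit Acsl6.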
